A study of Mus musculus with 9 samples.

Results

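The genes described here encode the constant regions of antibodies and proteins that B lineage cells use to build, join or display them. They are 9 listed genes of the 55450 in the count tables, found by symbol in GENCODE M21, and all 9 passed the filter on low counts. RNA of dissected substantia nigra was sequenced in 9 libraries of mouse tissue, 3 per group, collected 5 weeks after stereotaxic injection of lentivirus. The control group, CTR, is labelled GFP (control), and per the study's methods these were CX3CR1-CreERT2 mice given a Cre-inducible vector for destabilized GFP. The CX3 group is labelled 3xCX3-Cre and the DAT group 3xDAT-Cre, both infected with a Synuclein-expressing vector. CX3CR1-CreERT2 is active in microglia and other cells that express Cx3cr1 and needs tamoxifen, which the mice of CTR and CX3 received for 4 days, whereas DAT-Cre is driven from the dopamine transporter locus and was used without tamoxifen. The mice were male and 8 weeks old at injection, or 9 weeks where the methods describe the animals, and how many animals gave each library is not given in the sources used here. By this description CTR and CX3 differ in the vector, whereas DAT differs from CTR in Cre line, tamoxifen and vector, which cannot be told apart. The tissue of the groups also differed in markers of choroid plexus and erythrocytes. Summed choroid plexus markers were 33.3 to 36.1 CPM in CTR and 1473 to 1583 in CX3. Vector and tissue content therefore cannot be told apart between CTR and CX3 either.

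An antibody is built from heavy and light chains, and the constant region of the heavy chain sets its class. B cells begin with IgM and IgD, encoded by Ighm and Ighd, and activated B cells can switch to IgG, IgE or IgA by joining the same variable region to another constant gene. Plasma cells secrete antibody and hold very large amounts of constant-region RNA, whereas resting B cells hold less and display antibody with Cd79a and Cd79b, the signalling partners of the B cell receptor. In the healthy brain such cells are found mostly in the meninges, dura and choroid plexus, and few lie in the parenchyma.

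Reads counted on genes ranged from 21592817 to 39475428 per library, and levels are CPM, which are counts scaled to a common library size by edgeR's TMM method. The floor, set at 3 counts to allow for counting error alone, was 0.0779 to 0.151 CPM. The dopaminergic marker Slc6a3 was present in every library, with a mean of 130.0 CPM in CTR, 195 in CX3 and 91.1 in DAT. Libraries of CTR were close to repeats of each other, and those of CX3 and DAT less so. Nothing in the sources says that the libraries of a group came from separate animals. The p-values thus measure the spread between these libraries, which may be technical. In bulk tissue, fewer cells of a type and less RNA per cell cannot be told apart.

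The heavy-chain members lie together on the reverse strand of chromosome 12 (mm10), from Ighm at 113418558 to 113422730, through Ighg2b at 113302965 to 113307933 and Ighg2c at 113285325 to 113288932, to Igha at 113254830 to 113260236. Igkc, the only kappa constant gene, lies on the forward strand of chromosome 6 from 70726435 to 70726966. The first 76 coding bases of each are shown, 5′ to 3′, since 76 bases is the length of a read and the sequence decides whether a read can be assigned to 1 antibody class. They are from the GENCODE M21 transcripts, and capitals mark the 7 bases at which Ighg2b and Ighg2c differ.
Ighm, chr12:113422655-113422730, reverse strand: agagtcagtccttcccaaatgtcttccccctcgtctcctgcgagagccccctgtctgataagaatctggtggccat
Igha, chr12:113260161-113260236, reverse strand: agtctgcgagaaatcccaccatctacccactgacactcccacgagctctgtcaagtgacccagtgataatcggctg
Ighg2b, chr12:113307858-113307933, reverse strand: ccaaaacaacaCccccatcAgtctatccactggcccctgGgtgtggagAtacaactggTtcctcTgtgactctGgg
Ighg2c, chr12:113288857-113288932, reverse strand: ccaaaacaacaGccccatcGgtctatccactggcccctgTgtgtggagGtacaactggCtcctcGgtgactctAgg
Igkc, chr6:70726435-70726510, forward strand: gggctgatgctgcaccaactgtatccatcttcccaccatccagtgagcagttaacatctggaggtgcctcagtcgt

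Over the secreted coding sequence, Ighg2b and Ighg2c were identical at 85.9% of 1004 aligned bases, and the longest stretch without a difference was 78 bases. Of all 76-base windows, 17 of 2602 in Ighg2b and 4 of 1250 in Ighg2c occurred exactly in another gene's transcript, so nearly every full-length read of either gene differs from the other. Ighm, Igha, Igkc, Jchain and Cd79b had no such window, and Cd79a shared 60 of its 1382 windows with Gm32220. The other members lie apart from these loci, with Jchain on chromosome 5 (88519809 to 88527891), Cd79a on chromosome 7 (24897381 to 24902197), Cd79b on chromosome 11 (106311341 to 106314762) and Mzb1 on chromosome 18 (35647267 to 35649367). Mzb1 shared 57.2% of its exon bases with SPATA24, annotated on the same strand, so that reads from the shared part cannot be assigned to either gene and its counts are uncertain.

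The constant-region transcripts were highest in the control tissue, lower in CX3 and lowest in DAT. Ighm, the heavy chain of IgM, had 367, 362 and 352 CPM in the CTR libraries, 82.1, 80.2 and 78.4 in CX3, and 42.8, 45.6 and 43.8 in DAT. Igha, the heavy chain of IgA, had 491, 492 and 491 CPM in CTR, 74.1, 68.9 and 61.7 in CX3, and 12.7, 14.5 and 12.9 in DAT. For both genes every CTR library stood above every CX3 library, and every CX3 library above every DAT library. Ighg2b, a heavy chain of IgG, had 339, 340 and 338 CPM in CTR, 34.97, 35.6 and 34.9 in CX3, and 7.27, 7.85 and 5.705 in DAT. Ighg2c, the IgG heavy chain that the C57BL/6 reference carries in place of Ighg2a, had 569, 568 and 558 CPM in CTR, 40.8, 40.5 and 40.5 in CX3, and 3.92, 3.42 and 2.76 in DAT. Igkc had 1049, 1076 and 1039 CPM in CTR, 175, 170 and 158 in CX3, and 23.2, 30.4 and 23.7 in DAT. The 3 groups did not overlap for any of these genes. Of all genes tested, 49.3% were without overlap between CX3 and CTR, 64.1% between DAT and CTR and 61.0% between CX3 and DAT.

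Jchain encodes the joining chain that links IgA and IgM into polymers. It had 309, 293 and 292 CPM in CTR, 74.0, 72.7 and 69.0 in CX3, and 7.92, 10.5 and 7.94 in DAT, again without overlap between groups. Mzb1, a chaperone of the endoplasmic reticulum that assists antibody assembly, had 30, 34 and 25 counts in the CTR libraries, 9, 2 and 8 in CX3, and 0, 4 and 1 in DAT. CTR was above both other groups, which overlapped each other. Cd79a had 5.94, 5.63 and 5.30 CPM in CTR, 1.12, 1.47 and 1.30 in CX3, and 1.15, 1.56 and 1.45 in DAT. Its partner Cd79b had 3.48, 2.94 and 2.93 CPM in CTR, 1.40, 1.30 and 1.28 in CX3, and 0.548, 0.905 and 0.834 in DAT. For Cd79a the CX3 and DAT libraries overlapped, and for Cd79b they did not. Lack of overlap held for 49.3 to 64.1% of all genes tested, depending on the pair of groups.

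**Figure D1:**
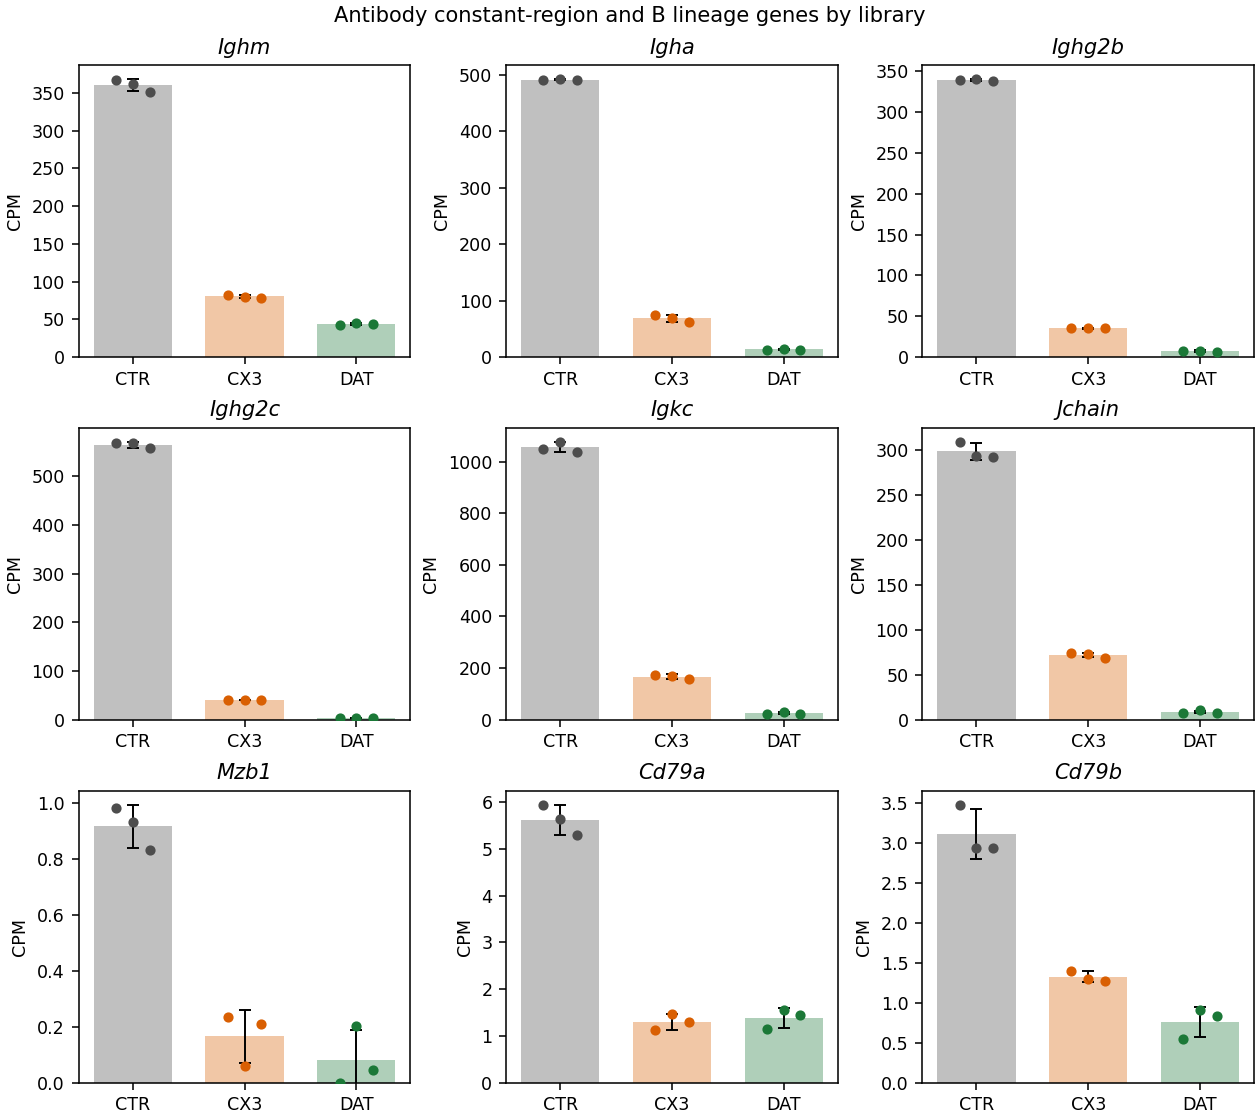
Level of each of the 9 genes (CPM, vertical axes from 0, with a separate scale for each gene) in the CTR, CX3 and DAT libraries. Points are libraries, bars are means and error bars are SD (n = 3 libraries). CTR is highest for every gene, and CX3 lies above DAT for all but Cd79a, whose means were 1.30 CPM in CX3 and 1.39 in DAT, and Mzb1, for which they overlap.

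The comparison of CX3 with CTR sets tissue with the Synuclein-expressing vector, switched on in Cx3cr1-expressing cells, against tissue with the GFP vector. These groups also differed in choroid plexus and erythrocyte markers, as given below. In edgeR's quasi-likelihood test with Benjamini-Hochberg adjustment over 20892 genes, 9 of the 9 members were lower in CX3 at an adjusted p under 0.05, against 16.5% of all genes tested. The 9 were also without overlap between the libraries of CX3 and CTR, a property of 49.3% of all genes tested. The members were chosen with earlier results of these data known, so these counts describe the list and are not independent evidence. The median log2 fold change of the members was −2.41, and that of all genes −0.0033. Ighg2c fell most, by 3.80 on the log2 scale (SE 0.059, adjusted p = 2.46e-14), which is 13.9-fold lower by the means. Ighg2b was 9.65-fold lower (log2 −3.27, SE 0.062, adjusted p = 8.47e-14) and Igha 7.20-fold (log2 −2.85, SE 0.064, adjusted p = 4.34e-13). Igkc was 6.30-fold, Ighm 4.49-fold and Jchain 4.14-fold lower, with log2 fold changes of −2.66, −2.17 and −2.05. Of the genes at low levels, Mzb1 changed by −2.41 (SE 0.45, adjusted p = 0.00104), Cd79a by −2.12 (SE 0.14, adjusted p = 9.29e-08) and Cd79b by −1.23 (SE 0.16, adjusted p = 7.64e-05) on the log2 scale. When the test asked for a change beyond 2-fold, Mzb1 (adjusted p = 0.0764) and Cd79b (adjusted p = 1) were no longer called.

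The comparison of DAT with CTR sets the same Synuclein-expressing vector, switched on in dopaminergic neurons, against the control tissue. Again 9 of the 9 members were lower in DAT (edgeR, adjusted p under 0.05), against 27.9% of all genes, and 9 were without overlap between groups, against 64.1%. The choice of members with earlier results known limits these counts too. Their median log2 fold change was −5.10, with −0.0038 for all genes. Ighg2c was 168-fold lower (log2 −7.36, SE 0.078, adjusted p = 2.99e-16), Ighg2b 48.9-fold (log2 −5.61, SE 0.076) and Igkc 40.9-fold (log2 −5.37, SE 0.087). Igha was 36.7-fold and Jchain 33.9-fold lower, whereas Ighm was 8.18-fold lower (log2 −3.03, SE 0.046, adjusted p = 6.14e-15). The receptor genes moved less than the constant-region genes among the members, with log2 fold changes of −2.05 for Cd79a (SE 0.15, adjusted p = 4.52e-08) and −2.09 for Cd79b (SE 0.20, adjusted p = 5.31e-07). Mzb1, with 89 counts over the CTR libraries and 5 over DAT, gave a ratio of 14.5 with a 95% exact interval of 6.005 to 45.9 for counting error only, and a fitted log2 fold change of −3.76 (SE 0.60, adjusted p = 9.11e-05). Both comparisons use the same CTR libraries, so they are not independent of each other.

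In the comparison of CX3 with DAT, which share the vector but not the Cre line or the tamoxifen, 7 of the 9 members were higher in CX3 (edgeR, adjusted p under 0.05), against 27.6% of all genes. The 7 were without overlap between these groups, as were 61.0% of all genes. These counts have the same limit of a list chosen with earlier results known. The differences were 12.1-fold for Ighg2c (log2 3.56, SE 0.079, adjusted p = 3.55e-13), 8.18-fold for Jchain, 6.50-fold for Igkc, 5.10-fold for Igha and 5.07-fold for Ighg2b. Ighm and Cd79b differed least among the genes called, by 0.87 (SE 0.045, adjusted p = 1.25e-09) and 0.86 (SE 0.22, adjusted p = 0.00369) on the log2 scale, and neither was called beyond 2-fold. Cd79a differed by −0.064 (SE 0.18, 95% interval −0.42 to 0.29, adjusted p = 0.82), and Mzb1 by 1.36 (SE 0.81, 95% interval −0.24 to 2.95, adjusted p = 0.170). Without the DAT library B, which held 4 of the 5 DAT counts of Mzb1, the Mzb1 difference was 3.08 (adjusted p = 0.0133).

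**Figure D2:**
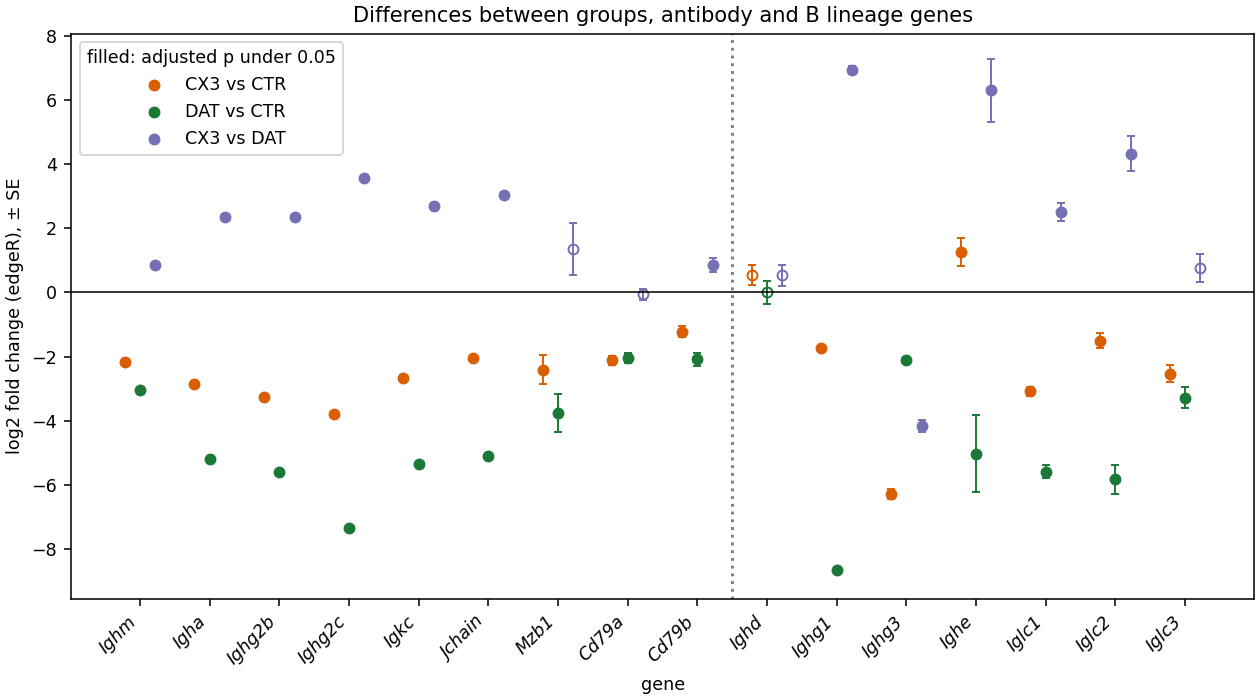
Log2 fold change (edgeR, error bars ± SE) of the 9 genes, left of the dotted line, and of the other constant-region genes that passed the filter, right of it, in the 3 comparisons. Filled points passed an adjusted p under 0.05. All 9 genes lie below 0 against CTR, and Ighg3 is the constant gene with its lowest level in CX3.

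Per kilobase of exon, the order of the genes changed from group to group. In CTR, Igkc led with a mean of 1983 CPM per kilobase, followed by Ighg2c at 426, Ighm at 191, Igha at 184, Ighg2b at 127 and Jchain at 118. Cd79a followed at 3.86, Cd79b at 2.18 and Mzb1 at 0.755, and no neighbours in this order overlapped between libraries. In CX3 the order was Igkc at 315, Ighm at 42.5, Ighg2c at 30.6, Jchain at 28.6, Igha at 25.6 and Ighg2b at 13.1 CPM per kilobase. The libraries of Jchain and Igha overlapped there, and so did those of Cd79b at 0.927 and Cd79a at 0.890. In DAT, Igkc had 48.4 and Ighm 23.4 CPM per kilobase, and Igha at 5.01, Jchain at 3.49, Ighg2b at 2.59 and Ighg2c at 2.54 lay well below them. Ighg2b and Ighg2c overlapped between the DAT libraries. Ighg2c thus held the second place in CTR and stood below Jchain in DAT. Exon lengths cover every annotated exon of a gene, including those of membrane forms, so levels per kilobase of genes with long rarely used exons are understated.

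Of the other 8 constant-region genes, 7 passed the filter. Against CTR, 5 were lower and 1 was higher in CX3, and 6 were lower in DAT (edgeR, adjusted p under 0.05). Of all genes tested, 16.5% were called lower and 14.0% higher in CX3, and 27.9% lower and 32.0% higher in DAT. Ighg1, another IgG heavy chain, had 134, 133 and 136 CPM in CTR, 41.5, 40.8 and 39.9 in CX3, and 15, 3 and 8 counts in the DAT libraries. Its difference between CX3 and DAT, 6.94 on the log2 scale (SE 0.12, adjusted p = 2.47e-14), was larger than that of any of the 9 members. Ighg3 ran in another order, with 17.7, 17.3 and 18.5 CPM in CTR, 7, 6 and 12 counts in CX3, and 3.89, 4.53 and 4.04 CPM in DAT. It was lower in CX3 than in DAT by a log2 fold change of −4.18 (SE 0.19, adjusted p = 3.02e-10), the direction in which 31.3% of all genes were called.

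The light chains of the lambda type followed the members. Iglc1 had 9.63 to 10.3 CPM in CTR, 0.961 to 1.38 in CX3 and 0.132 to 0.302 in DAT. The means were 1.27, 0.214 and 0.125 CPM for Iglc3, and 2.38, 0.836 and 0.0384 CPM for Iglc2. Iglc2 had 93 counts over the CX3 libraries and 3 over DAT, a ratio of 21.99 with a 95% exact interval of 7.30 to 109 for counting error only. Between CX3 and DAT, Iglc3 (adjusted p = 0.201) was not called. Iglc4 had 1 count in all 9 libraries together. Ighd, the heavy chain of IgD that naive B cells carry beside IgM, had means of 0.462, 0.696 and 0.460 CPM and was not called in any comparison, with log2 fold changes of 0.55 in CX3 (95% interval −0.069 to 1.17) and 0.011 in DAT (95% interval −0.69 to 0.71) against CTR. Ighe, the heavy chain of IgE, had 4, 3 and 5 counts in CTR, 11, 10 and 13 in CX3, and 0 in each DAT library. Against the floor of 3 counts over the DAT group, Ighe was at least 8.04-fold higher in CX3 and at least 3.27-fold higher in CTR. The higher level in CX3 than in CTR (log2 1.27, SE 0.44, adjusted p = 0.0455) was lost in several alternatives, with adjusted p of 0.169 in DESeq2 and 0.0712 to 0.113 without CTR library A or C and 0.0509 without DAT library C.

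The makeup of the heavy-chain counts also differed between the groups. Switched classes, IgA, IgG and IgE together, took 80.8% of heavy-chain constant counts in CTR library A (Wilson 95% interval 80.5 to 81.1), 81.0% in B (80.7 to 81.3) and 81.4% in C (81.1 to 81.7). In CX3 they took 69.9% (69.0 to 70.7), 69.7% (68.7 to 70.6) and 69.2% (68.3 to 70.1), and in DAT 39.4% (37.6 to 41.3), 39.8% (37.4 to 42.3) and 36.8% (34.5 to 39.2). The shares were 81.1 ± 0.288% in CTR, 69.6 ± 0.330% in CX3 and 38.7 ± 1.62% in DAT (mean ± SD, n = 3 libraries), and no groups overlapped. Each of the 3 comparisons gave p = 0.1 in a two-sided exact permutation test over libraries, the smallest p that 3 against 3 allows, or 0.2 after Benjamini-Hochberg adjustment over 6 tests. These intervals cover counting error only.

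Ighm took 18.9 ± 0.288% of the heavy-chain counts in CTR, 30.1 ± 0.371% in CX3 and 60.7 ± 1.73% in DAT (SD, n = 3). Igha took 25.7 ± 0.163%, 25.6 ± 1.48% and 18.4 ± 0.619%, a share that CTR and CX3 had in common within the spread of their libraries. Ighg2c went from 29.6 ± 0.131% in CTR to 15.3 ± 0.473% in CX3 and 4.63 ± 0.779% in DAT, and Ighg2b from 17.8 ± 0.102% to 13.2 ± 0.445% and 9.52 ± 1.18%. Among IgG counts alone, Ighg2c was the leading gene in CTR with 53.5%, Ighg1 and Ighg2c were almost level in CX3 with 34.9% and 34.8%, and Ighg2b led in DAT with 46.8%. Ighg3 made up 1.69% of IgG counts in CTR, 0.191% in CX3 and 28.3% in DAT.

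**Figure D3:**
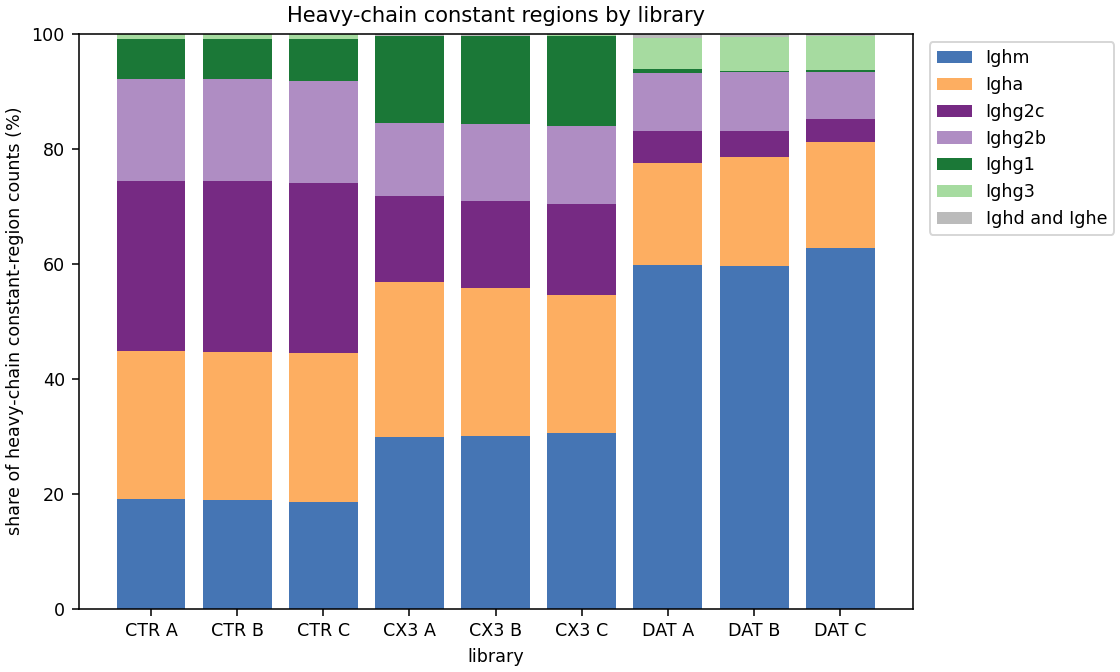
Share of each heavy-chain gene in the heavy-chain constant-region counts (%) in each of the 9 libraries, stacked to 100%. Libraries of a group look alike, and Ighm rises from 18.9% in CTR to 60.7% in DAT while Ighg2c goes from 29.6% to 4.63%.

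The kappa share of the light chains stayed within a narrow range. Igkc took 98.7, 98.8 and 98.7% of light-chain constant counts in CTR, 98.8, 98.7 and 98.6% in CX3, and 98.5, 98.5 and 98.7% in DAT, with Wilson 95% intervals that reached from 97.2 to 99.4% in DAT, where only 546 to 860 counts were available. The group means differed by −0.0356 percentage points between CX3 and CTR (p = 0.5), −0.142 between DAT and CTR (p = 0.2) and 0.106 between CX3 and DAT (p = 0.3, two-sided exact permutation tests, adjusted p of 0.3 to 0.5). With 3 libraries against 3 these tests could not go below 0.1, so they do not show that the shares are alike.

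Counts of 1 gene relative to another varied too. Heavy-chain constant counts per Cd79a count were 323, 340 and 357 in CTR, 246, 181 and 197 in CX3, and 62.1, 49.1 and 48.3 in DAT, without overlap between groups. For every 100 counts of Ighm and Igha, the chains that Jchain joins, there were 36.0, 34.3 and 34.7 Jchain counts in CTR, 47.4, 48.7 and 49.3 in CX3, and 14.3, 17.5 and 14.0 in DAT. This ratio was therefore highest in CX3, unlike the level of Jchain itself. Heavy-chain counts per 100 light-chain counts were 176 to 180 in CTR, 155 to 160 in CX3 and 248 to 303 in DAT. All constant-region genes together took 0.301 to 0.307% of the counts on genes in CTR, 0.0437 to 0.0481% in CX3 and 0.00870 to 0.00989% in DAT. These ratios were not tested.

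**Figure D4:**
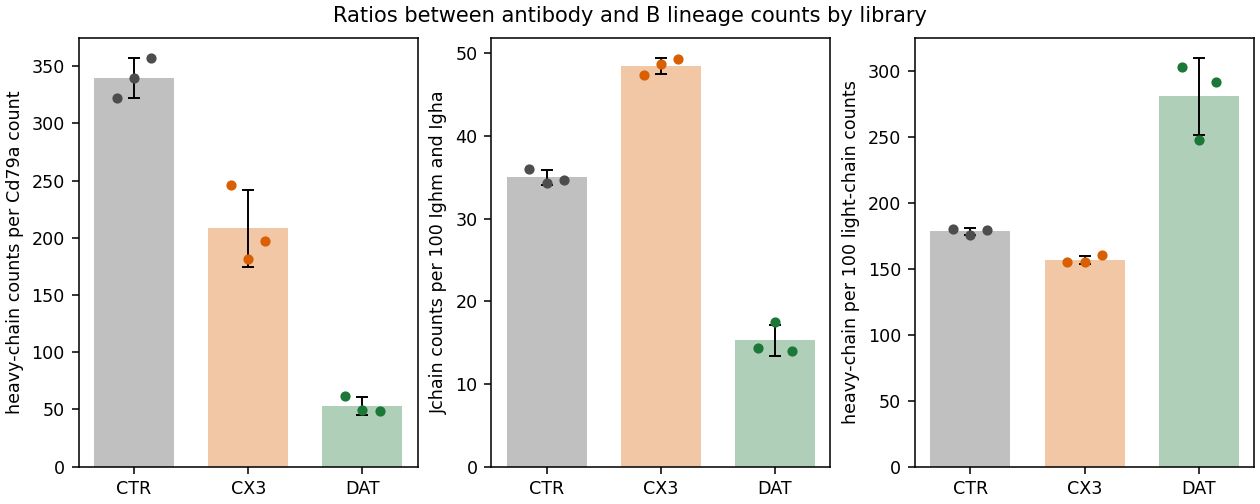
Heavy-chain counts per Cd79a count, Jchain counts per 100 counts of Ighm and Igha, and heavy-chain counts per 100 light-chain counts, by group. Points are libraries, bars are means and error bars are SD (n = 3 libraries, axes from 0). The first ratio goes down from CTR to DAT, the second is highest in CX3 and the third is highest in DAT.

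Likeness of profiles over the 9 libraries was measured by the root mean square difference of centred log2 CPM. For the constant-region members and Jchain, the nearest genes were mostly other antibody genes. For Mzb1, Cd79a and Cd79b, none of the 3 nearest genes outside the list was an antibody gene. For Jchain the nearest was Ighv9-3, a heavy-chain variable gene, at 0.126. Igha was nearest to Iglc1 (0.263) and Igkc to Ighv5-16 (0.237) outside the list, and to each other within it (0.160). Ighg2c stood apart from the other members, with Ighg2b closest at 0.744. Ighm was nearest to Igkv8-27 (0.180) and next to Serpina3n (0.206). Cd79a was nearest to Cxcl13 (0.147), the chemokine that draws B cells, then to Gzma (0.202), and Cd79b to Tm6sf2 (0.130), whereas Mzb1 was nearest to C130026I21Rik (0.468) and next to Pou2af1 (0.485). Summed over the 113 heavy-chain variable genes, the level was 413 to 418 CPM in CTR, 43.3 to 47.7 in CX3 and 8.85 to 10.9 in DAT, and over the 100 kappa variable genes it was 850 to 876, 133 to 135 and 20.2 to 20.8 CPM.

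Other genes of B cells were also measured, in lists that were likewise chosen with earlier results of these data known. Among all genes tested, 16.5% were called lower and 14.0% higher in CX3 than in CTR, and 27.9% lower and 32.0% higher in DAT. Of 18 genes of mature B cells, 12 were lower and none higher in CX3, and 11 were lower and 1 higher in DAT (edgeR, adjusted p under 0.05), with medians of −0.65 and −1.02 on the log2 scale. Pou2af1, a coactivator of antibody gene transcription, had 5.89 ± 0.304 CPM in CTR, 1.56 ± 0.0736 in CX3 and 0.712 ± 0.257 in DAT (SD, n = 3), with log2 fold changes of −1.92 (adjusted p = 2.87e-07) and −3.09 (adjusted p = 3.57e-09). Ms4a1, the B cell surface protein CD20, had 2.46, 0.776 and 0.459 CPM, and Fcrla, an Fc receptor-like protein of B cells, 1.80, 0.368 and 0.284. Cd22, a B cell receptor inhibitor that microglia can also express, had 6.89, 3.997 and 2.10 CPM.

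Of 12 genes linked to plasma cells, 8 were lower and none higher in CX3, and 8 were lower and 1 higher in DAT, with medians of −0.44 and −0.91, where 16.5 and 27.9% of all genes were called lower. Irf4, a transcription factor of plasma cells, had 5.74 ± 0.513 CPM in CTR, 1.88 ± 0.417 in CX3 and 0.759 ± 0.191 in DAT (SD, n = 3), and log2 fold changes of −1.62 (adjusted p = 5.14e-06) and −2.86 (adjusted p = 2.77e-08). Derl3, which helps clear misfolded proteins from the endoplasmic reticulum, had means of 4.91, 1.93 and 1.42 CPM. Xbp1 (134, 94.1 and 103 CPM) and Creld2 (34.1, 22.02 and 19.999 CPM) are also made by other cells of the brain, and they were lower than in CTR by −0.51 and −0.63 in CX3 and by −0.39 and −0.78 in DAT on the log2 scale.

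Of 8 genes of antibody gene recombination and class switching, only 3 passed the filter, with 1 lower in CX3 and 1 higher in DAT. Bcl6 had 21.4, 15.7 and 22.9 CPM and Ung 1.75, 2.18 and 2.93 CPM. Of 10 genes of B cell survival, homing and antibody transport, 8 passed the filter. In CX3, 2 were lower and 2 higher, and in DAT 3 were lower and 1 higher. Over all genes 16.5% were lower and 14.0% higher in CX3, and 27.9% lower and 32.0% higher in DAT. Cxcl13 had 19.8 ± 0.665 CPM in CTR, 4.90 ± 0.321 in CX3 and 4.86 ± 0.200 in DAT (SD, n = 3), with log2 fold changes of −2.02 (adjusted p = 1.30e-10) and −2.03 (adjusted p = 8.21e-11). Cxcl12, a chemokine that keeps plasma cells in their niche, was higher, at 35.7, 56.1 and 64.1 CPM. Tnfsf13b, the survival factor BAFF, had 9.52, 11.0 and 5.66 CPM, and Fcgrt, the neonatal Fc receptor, 41.1, 33.7 and 43.7. The call of Tnfsf13b as higher in CX3 was lost in most alternatives, DESeq2 among them (adjusted p = 0.101).

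Markers of other cells also differed between the groups, and their calls stand beside 16.5% of all genes lower and 14.0% higher in CX3, and 27.9% lower and 32.0% higher in DAT. The summed level of 6 choroid plexus markers was 33.3 to 36.1 CPM in CTR, 1473 to 1583 in CX3 and 871 to 1043 in DAT, with all 6 genes called higher in both. Ttr, the leading choroid plexus transcript, had a mean of 20.03 CPM in CTR, 1457 in CX3 and 853 in DAT. The summed level of 5 erythrocyte markers was 242 to 267 CPM in CTR, 94.5 to 108 in CX3 and 187 to 266 in DAT. Of these, 5 were called lower in CX3 and 3 in DAT. The 7 T cell markers summed to 57.7 to 61.3 CPM in CTR, 50.0 to 52.7 in CX3 and 15.2 to 17.6 in DAT, with 2 lower in CX3 and 7 lower in DAT. Of the 2, Cd3g lost its call in several alternatives, such as edgeR on reverse-strand counts (adjusted p = 0.142), while Cd3e was called lower in some others. The 6 microglia markers summed to 690 to 698, 458 to 463 and 451 to 463 CPM, with 5 lower in CX3 and 6 in DAT. The 6 meningeal fibroblast markers summed to 157 to 160 CPM in CTR, 133 to 140 in CX3 and 276 to 284 in DAT. Against CTR, 3 of them were lower and 1 higher in CX3, and 4 were higher in DAT. The 6 dendritic and mast cell markers summed to 40.6 to 43.3, 38.5 to 43.1 and 56.6 to 58.4 CPM. Of these, 4 were higher and 1 lower in CX3, and 2 were higher and 1 lower in DAT. Kit had means of 19.2, 13.2 and 35.3 CPM, so the sum hides the rarer markers. Means in CTR, CX3 and DAT were 0.775, 3.16 and 0.220 CPM for Xcr1, 0.525, 1.59 and 0.769 for Cpa3, and 0.482, 1.53 and 1.19 for Tpsb2. The 7 dopaminergic markers summed to 852 to 860, 1034 to 1053 and 664 to 678 CPM, with 5 higher in CX3, and 1 higher and 4 lower in DAT. No marker was at 0 in all libraries of a group. The part of these differences in the antibody results was not tested.

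**Figure D5:**
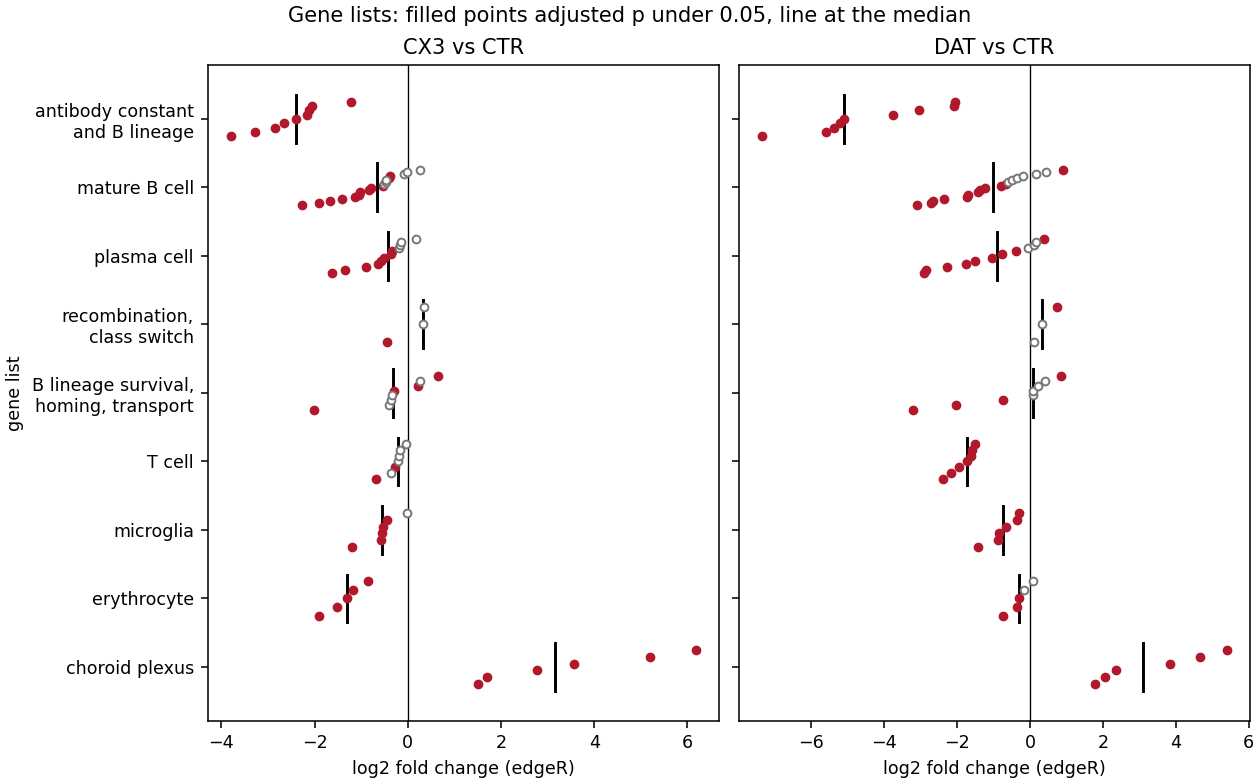
Log2 fold change (edgeR) of each gene of 9 lists in CX3 against CTR and in DAT against CTR, which share the CTR libraries. Filled points passed an adjusted p under 0.05, open points did not, and black lines are list medians. The 9 antibody and B lineage genes have medians of −2.41 and −5.10, whereas the choroid plexus markers lie above 0.

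The spread between libraries of a group differed from member to member. The squared difference in counts between libraries of a group, relative to Poisson sampling, averaged 3.35 over the members in CTR, 5.30 in CX3 and 3.77 in DAT, against 1.67, 4.54 and 9.07 over all genes tested. The medians over the members were lower, at 0.205 to 1.41 for the pairs of CTR libraries, 0.547 to 0.812 for CX3 and 0.924 to 2.37 for DAT, so that a few abundant genes carried the means. In CTR, Igkc stood at 11.6, Jchain at 8.92 and Ighm at 5.40, whereas Igha stood at 0.0624 and Ighg2b at 0.115. Between libraries of different groups the same ratio for the members was 7236 for CTR and CX3, 10068 for CTR and DAT and 974 for CX3 and DAT. The largest within-group values belonged to Igha in CX3 at 21.9, where the coefficient of variation was 9.17%, and to Igkc in CX3 and DAT at 17.2 and 14.0. Cd79a, with 31 to 205 counts per library, stayed at 0.575 to 0.902.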

How the data were processed

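RNA-seq was read from 9 libraries, grouped by the vector and Cre line in their labels. The authors deposited raw counts per gene, unnormalized, on mm10, and per the labels used Trimmomatic, STAR and featureCounts, although the deposited layout is that of STAR's own gene counts. All 55450 gene identifiers match GENCODE M21. The reverse strand held 49.8 to 49.9% of strand-specific counts, so counts of both strands were used. Rows that name no gene (30.5 to 35.9% of reads) were left out.

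Counts were scaled by TMM and tested with edgeR 4.0.16 in R 4.3.3 (quasi-likelihood, all 9 libraries in 1 fit, filterByExpr, Benjamini-Hochberg, adjusted p under 0.05), with DESeq2 1.42.0 as an alternative. Shares of counts were compared by exact permutation over libraries. The code was tested on simulated data. Named genes are all members and other constant-region genes, from each other list at most 4 called genes by smallest adjusted p in CX3 against CTR, and for each member the 3 nearest genes. The members and lists were chosen with earlier results of these data known. Genes named outside this rule are said to be so. One listed gene is not reported here. Python 3.11.15, numpy 2.4.6, pandas 2.3.3 and scipy 1.17.1 were used.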

Additional observations from a re-analysis of the deposited data

How the results depend on the processing

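In 324 refits of the 9 members against CTR, all alternatives but the 2-fold threshold included, each kept its direction and its call, and 156 of 161 did so between CX3 and DAT, the exceptions being Cd79a and Mzb1. Under the 2-fold threshold 7 members remained called in CX3 against CTR, 9 in DAT against CTR and 5 between CX3 and DAT, and the calls over all genes went from 6367 to 244, from 12520 to 1448 and from 12311 to 1365, since that threshold asks for more. Leaving out 1 library gave 9 members called against CTR and 7 to 8 between CX3 and DAT. Scaling by library size alone shifted the median of all genes by −0.15 in DAT against CTR and by 0.20 in CX3 against DAT, and lower calls went from 54.1 to 41.1% of calls in CX3 against CTR, from 46.6 to 62.2% in DAT against CTR and from 53.2 to 33.3% in CX3 against DAT.

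With the replicate block by letter, 9, 9 and 7 members were called, with 5805, 12144 and 11955 genes in all. The letters are only names: deviations of same-lettered libraries correlated at −0.16 to 0.040, and the best match had the same letter in 6 of 18 cases.

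Small differences that were not called changed sign, and the cause was not tested. Cd79a between CX3 and DAT went to 0.13 (library size alone), 0.47 (forward strand) and −0.20 to 0.058 without a library, 0.031 among them. Ighd in DAT against CTR went to −0.012 (DESeq2), −0.0063 (DESeq2 size factors), −0.14 (library size), −0.88 (reverse strand), −0.026 (2 groups only) and −0.26 to 0.36 without a library. Fcrla went to −0.30 (forward strand) and Xbp1 to 0.072 (library size) and 0.0018 (forward strand) between CX3 and DAT. Cxcl13 there went to −0.058 (forward strand) and −0.049 to 0.068 without a library. In DAT against CTR, Bcl6 went to −0.047 (library size) and −0.067 (reverse strand), and Fcgrt to −0.065 (library size), −0.0065 (forward strand) and −0.00057 to 0.11 without a library. The call of Slc18a2, higher in DAT by 0.12, was lost in most alternatives. Among them were DESeq2 (0.097, adjusted p = 0.0841), the reverse strand (0.054), the forward strand (0.032) and library size alone, where it went to −0.029. Ung in CX3 against CTR went to −0.047 (forward strand).

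The switched share was 80.6, 66.5 and 33.5% in CTR, CX3 and DAT with counts per exon length, 79.5, 64.2 and 34.9% over the 4 listed heavy chains, and 70.1 and 69.1% in CX3 on the reverse and forward strand. The kappa share in CTR, CX3 and DAT was 98.6, 98.5 and 98.2% on the reverse strand, 98.6, 98.5 and 97.7% on the forward strand, 98.6, 98.6 and 98.4% per exon length, and 99.8, 99.5 and 99.8% against Iglc2 alone. The order of the switched share was kept in each. The spread of the members between CTR libraries was 2.30 on the reverse strand.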

Other observations

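The following genes of the B cell lists are given for their separate patterns, and they were chosen after their values were seen. Pax5, a transcription factor of B cells that neurons of the midbrain and hindbrain border also use, had 8.55 ± 0.540 CPM in CTR, 8.40 ± 0.516 in CX3 and 15.7 ± 2.83 in DAT (SD, n = 3 libraries), and was higher in DAT than in CTR by 0.90 on the log2 scale (edgeR, adjusted p = 1.02e-05). Ebf1, a B lineage factor also made by vascular mural cells, had 17.4, 13.4 and 19.6 CPM. Fcmr, a receptor for IgM, had 0.513, 0.189 and 0.712 CPM and was lower in CX3 than in DAT by a log2 fold change of −1.86 (adjusted p = 0.000632). Slamf7, which plasma cells share with cytotoxic lymphocytes, had 11.3, 9.91 and 1.53 CPM, close in CTR and CX3 (log2 −0.19, adjusted p = 0.0985) and far lower in DAT (log2 −2.92, adjusted p = 1.03e-10). Il21, a cytokine of T cells that help B cells, had 0.376 and 0.288 CPM in CTR and CX3 and 0.0329 in DAT.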
